A study of Homo sapiens with 12 samples.

Results

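The genes described here are 10 regulators of the G1 phase, namely the D-type cyclins CCND1, CCND2 and CCND3, the E-type cyclins CCNE1 and CCNE2, the kinases CDK4 and CDK6, and the inhibitors CDKN1B, CDKN1C and CDKN2A. They were chosen by name from the 60617 genes of the count files. RNA-seq was available for 12 libraries of 2 human colon cancer lines. The parental line is HCT 116 p53-/-, derived from a colorectal carcinoma, in which p53 was deleted. Its subline, named uL3Δ here, carries the same p53 deletion and is labelled as an RPL3 knockout, RPL3 being the gene of ribosomal protein uL3, while the methods call it stably silenced for uL3. Cells of each line received vehicle, or 5 nM Actinomycin D (Act D) for 24 h, with 3 libraries in each of the 4 groups, described in the labels as biological replicates. At low dose Act D blocks the synthesis of ribosomal RNA by RNA polymerase I. Whether the subline is a single clone is not stated in the sources used here.

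Progression through G1 depends on cyclins, which are made and destroyed in turn, and on the cyclin-dependent kinases (CDKs) that they activate. D-type cyclins bind CDK4 and CDK6, E-type cyclins bind CDK2, and both kinds of complex phosphorylate the retinoblastoma protein, which frees E2F factors to transcribe the genes of S phase. Inhibitors of the INK4 family bind CDK4 and CDK6 alone, whereas the CIP/KIP family binds assembled cyclin-CDK complexes. In colon cancer cells CCND1 is known as a gene that responds to growth factor and Wnt signals. The design asks how each of these genes differed between the lines, how it changed with Act D in each line, and whether the change depended on the line.

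Totals of 10087925 to 21138886 expected counts per library were available, and levels are given as CPM, counts brought to a common library total after TMM scaling. The libraries labelled uL3Δ did not have lower RPL3, which was at 1121 to 1151 CPM in vehicle-treated HCT 116 p53-/- cells and at 1188 to 1337 CPM in vehicle-treated uL3Δ cells (log2 difference 0.13 ± 0.08 SE, edgeR quasi-likelihood test, adjusted p = 0.15, and -0.11 when scaled by library size alone). They are therefore called the libraries labelled uL3Δ, or uL3Δ for short. Of 12 markers of colon epithelium, 5 were under 1 CPM in each group on average (CDX1, VIL1, CDH17, LGALS4 and GPA33). KRT20, CDH1 and CDX2 were also under 1 CPM in uL3Δ. KRT20 was low in the parental line too, at 0.90 CPM on average with vehicle and 1.07 CPM with Act D. With vehicle, 6 of the 7 that could be tested were lower in uL3Δ and 1, KRT18, was higher, beside 36.2% and 35.1% of all genes. With Act D these counts were the same, beside 35.3% and 35.1% of all genes (edgeR quasi-likelihood test, adjusted p under 0.05). The markers summed to 2481 to 2682 CPM with vehicle and 2684 to 2814 CPM with Act D in the parental line, against 1592 to 1784 CPM and 1737 to 1983 CPM in uL3Δ. In the parental line CDH1 lay between 64.3 and 76.6 CPM, and in uL3Δ its highest value was 0.70 CPM. Of 7 fibroblast markers the sum was 7.71 to 14.6 CPM in the parental line and 68.5 to 84.7 CPM in uL3Δ, with COL1A2, DCN and THY1 under 1 CPM in all groups. With vehicle COL3A1 averaged 0.31 CPM in the parental line and 57.8 CPM in uL3Δ and LUM 0 and 10.5 CPM, whereas COL1A1 averaged 7.50 and 4.14 CPM. Of 5 leukocyte markers the sum was 7.73 to 12.6 CPM and 25.1 to 36.4 CPM, with PTPRC, CD3E and CD79A under 1 CPM in all groups. The 4 endothelial markers summed to at most 2.09 CPM. Every difference between the lines below stands beside these differences in markers, and their part in it was not tested. Replicate 1 of Act D-treated uL3Δ differed more from replicates 2 and 3 (chi-square per degree of freedom 95.3 and 55.9 over genes) than these differed from each other (11.8). The calls of members given below held without it, except that of CCNE1 with Act D in uL3Δ.

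A comparison within a library needs values per length, and these are given in TPM, the deposited values that are divided by transcript length and brought to a common total. In vehicle-treated HCT 116 p53-/- cells CCND1 was the highest of the 10 genes, at 116 ± 10.6 TPM (SD, n = 3), followed by CDK4 at 62.9 ± 5.24 and CDK6 at 29.1 ± 4.38 TPM. Next came CCNE1 at 17.8 ± 2.43 and CDKN2A at 15.9 ± 2.40 TPM, whose ranges overlapped and whose order differed among libraries. CCNE2 at 12.4 ± 1.72, CCND3 at 10.4 ± 0.73, CDKN1B at 7.94 ± 0.62 and CDKN1C at 1.74 ± 0.36 TPM followed in the same order in all 3 libraries. With Act D, CDK6 fell from the third to the fifth place in this line, at 15.3 ± 0.39 TPM. In vehicle-treated uL3Δ cells CDK4 was at 74.2 ± 5.81 TPM and CCND1 at 73.5 ± 36.6 TPM, an order that the spread does not settle. CCND1 was at 115 TPM in replicate 1 of that group and at 47.2 and 58.0 TPM in the others, and the mean transcript length that RSEM gave CCND1 there ranged from 3140 to 4053 bases. In Act D-treated uL3Δ cells CDK4 at 70.3 ± 6.25 TPM stood above CCND1 at 42.0 ± 2.83 TPM in each library. The order of CDKN1B and CDKN1C differed among libraries in the latter group, at 5.83 ± 0.70 and 5.99 ± 0.75 TPM.

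The region before the start of transcription is shown for members that behaved differently in the comparisons, from RefSeq promoter windows (GRCh38.p14) cut to the 250 bases before the start, which 6 of the 10 members had. CCND1, CCND2, CCNE2 and CDKN1C had no entry. CCNE1 was lower in uL3Δ and higher with Act D, CDK6 was lower with Act D, CCND3 and CDK4 were higher in uL3Δ, and CDKN1B passed no test. Each sequence runs 5′ to 3′ on the strand of its gene, and capitals mark matches to any of 4 motifs searched on both strands, a GC box (GGGCGG, the kind of site that SP1 binds), E2F sites (TTTCCCGC or TTTGGCGC), an E-box (CACGTG, a site of MYC and related factors) and a cAMP response element (TGACGTCA).
CCNE1, chr19:29811741-29811990, plus strand, just before the gene: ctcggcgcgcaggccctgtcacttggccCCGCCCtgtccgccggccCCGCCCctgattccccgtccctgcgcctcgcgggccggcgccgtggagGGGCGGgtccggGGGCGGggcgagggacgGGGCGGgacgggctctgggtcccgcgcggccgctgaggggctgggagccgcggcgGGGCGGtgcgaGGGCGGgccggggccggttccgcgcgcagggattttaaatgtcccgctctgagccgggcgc
CCND3, chr6:41941809-41942058, minus strand, between exons of longer CCND3 transcripts: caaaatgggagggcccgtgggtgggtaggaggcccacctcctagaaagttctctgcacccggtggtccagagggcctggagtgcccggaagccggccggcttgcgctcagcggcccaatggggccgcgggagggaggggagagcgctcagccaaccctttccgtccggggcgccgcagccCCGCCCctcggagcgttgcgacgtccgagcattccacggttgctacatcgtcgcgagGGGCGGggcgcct
CDK4, chr12:57752448-57752560, minus strand, the first 113 bases of its window, beyond which annotated exons begin: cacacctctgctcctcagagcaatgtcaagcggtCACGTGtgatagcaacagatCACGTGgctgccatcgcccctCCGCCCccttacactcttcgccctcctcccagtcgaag
CDK6, chr7:92833960-92834209, minus strand, between exons of a longer CDK6 transcript: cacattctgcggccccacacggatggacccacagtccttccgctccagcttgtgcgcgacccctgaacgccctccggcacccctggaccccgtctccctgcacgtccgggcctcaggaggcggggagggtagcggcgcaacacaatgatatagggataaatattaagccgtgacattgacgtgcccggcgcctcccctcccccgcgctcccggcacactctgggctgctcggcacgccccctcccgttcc
CDKN1B, chr12:12717118-12717367, plus strand, between exons of a longer CDKN1B transcript: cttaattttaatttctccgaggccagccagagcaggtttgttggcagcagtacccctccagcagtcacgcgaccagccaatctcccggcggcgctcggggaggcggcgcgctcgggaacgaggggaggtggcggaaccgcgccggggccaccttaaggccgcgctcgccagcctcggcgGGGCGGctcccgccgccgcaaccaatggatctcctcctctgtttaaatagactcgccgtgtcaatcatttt

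The CCNE1 window held 7 GC boxes, the printed CCND3 window 2, the CDKN1B window 1 and the printed CDK6 window none of the 4 motifs. The window of the other CDK6 start, at the end of the annotated gene, held 3 GC boxes. Of the CCND3 windows not printed, that of the start at 42048688 held 5 GC boxes and that at 41939205 none of the motifs. Of the CDKN2A windows, that of the start at 21974857 held 1 GC box and that at 21995324 none of the motifs. The whole CDK4 window held 3 E-boxes, at 96 to 101, 191 to 196 and 211 to 216 bases before the start, and 3 GC boxes, of which the printed stretch shows 2 and 1. Among 35114 windows of the same length, 42.6% held a GC box, 6.35% the E-box, 1.93% an E2F site and 1.65% the cAMP response element. No member's window held the E2F or the cAMP element as spelled here, which says only that these letters are not in these windows.

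With vehicle, 7 of the 9 members tested differed between the lines (edgeR quasi-likelihood test with Benjamini-Hochberg adjustment, adjusted p under 0.05), where 71.3% of the 15692 genes tested did. The 4 higher in uL3Δ were CCND3, CDK4, CDKN1C and CDKN2A, and 35.1% of all genes were higher. The 3 lower were CCND1, CCNE1 and CCNE2, and 36.2% of all genes were lower. In all 7 the libraries of the lines did not overlap, which held for 72.5% of all genes. Since most genes differed between these lines, this share of the members is near that of genes in general. The median log2 difference was -0.00 over the members and -0.02 over all genes. With Act D the same 7 genes differed in the same directions and again without overlap, beside 70.4% of all genes (35.1% higher and 35.3% lower), and 74.1% of all genes did not overlap. The comparison with vehicle and that with Act D share no library. In cultures measured in bulk, a lower level in each cell and fewer cells that express a gene cannot be told apart. Levels of each gene by library are shown in the plot of 9 genes.

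**Figure D1:**
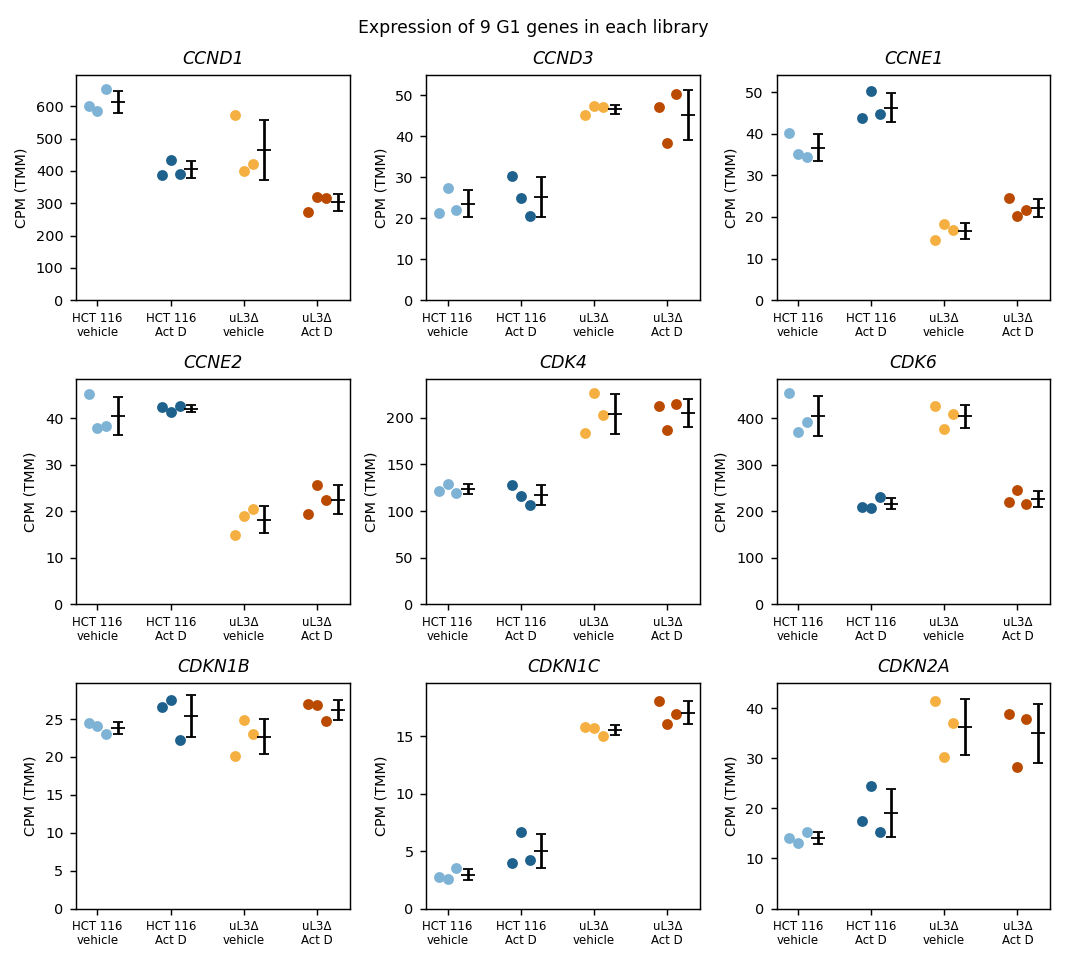
Level of each tested gene in each library, in CPM after TMM scaling (linear axes from 0), with points for the 3 libraries of a group and a bar for the mean ± SD. CCND3, CDK4, CDKN1C and CDKN2A sit higher in uL3Δ, CCNE1 and CCNE2 lower, and CDK6 drops with Act D in both lines from between 370 and 453 CPM to between 208 and 245 CPM.

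Among the D-type cyclins, CCND1 (cyclin D1, ENSG00000110092, chr11:69641156-69654474, hg38) was at 601, 586 and 653 CPM in the vehicle-treated parental libraries and at 572, 401 and 421 CPM in uL3Δ. The groups did not overlap, although replicate 1 of uL3Δ came close to the lowest parental library. The log2 difference was -0.40 ± 0.11 (SE, edgeR quasi-likelihood test, adjusted p = 0.0043), and without that library it was -0.57. With Act D, CCND1 was at 388, 434 and 392 CPM in the parental line and at 273, 319 and 317 CPM in uL3Δ, again without overlap (log2 difference -0.42 ± 0.11, adjusted p = 0.0035 by the same test). The call was kept in each alternative tried for both treatments. CCND1 shares 497 of its 4761 exon bases with LTO1 on the opposite strand, and LTO1 was higher in uL3Δ (28.3 to 35.5 CPM against 10.3 to 12.9 CPM with vehicle).

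CCND3 (cyclin D3, ENSG00000112576, chr6:41934934-42050357) moved the other way. It was at 21.3, 27.3 and 22.0 CPM in the vehicle-treated parental line and at 45.3, 47.4 and 47.1 CPM in uL3Δ, so that each uL3Δ library stood well above each parental one. This was a 1.98-fold difference (log2 0.99 ± 0.13 SE, edgeR quasi-likelihood test, adjusted p = 3.3e-06). With Act D the parental libraries were at 30.3, 24.95 and 20.5 CPM and those of uL3Δ at 47.1, 38.4 and 50.3 CPM (log2 difference 0.84 ± 0.14, adjusted p = 2.8e-05 by the same test). CCND1 thus made up less of the D-type cyclin transcripts in uL3Δ. Per length, its share was between 90.5% and 92.9% in the vehicle-treated parental libraries and between 80.0% and 88.7% in uL3Δ, and this share was computed after the values were seen and is given without a test.

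CCND2 (cyclin D2, ENSG00000118971, chr12:4269771-4305353) was all but absent. Its count was 1.01 in replicate 3 of the vehicle-treated parental line, 1 in replicate 1 of the Act D-treated parental line and 0 in the other 10 libraries, and it was not tested. A count of 0 allows up to 3 counts, which correspond to between 0.142 and 0.297 CPM in these libraries, counting error only. CCND2 shares 999 of its 7988 exon bases on the same strand with the gene ENSG00000285901, to which up to 2.54 CPM were assigned, so that its own count is uncertain at this level.

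Both E-type cyclins were lower in uL3Δ. CCNE1 (cyclin E1, ENSG00000105173, chr19:29811991-29824312), which activates CDK2 at the G1/S transition, was at 40.3, 35.2 and 34.4 CPM in the vehicle-treated parental line and at 14.5, 18.3 and 16.9 CPM in uL3Δ, a gap wider than the range of either group. It fell by 1.14 on the log2 scale (SE 0.11, edgeR quasi-likelihood test, adjusted p = 6.8e-08). CCNE2 (cyclin E2, ENSG00000175305, chr8:94879770-94896678), a second partner of CDK2, was at 45.1, 37.9 and 38.3 CPM in the parental line and at 14.9, 19.0 and 20.6 CPM in uL3Δ, also far apart. Its log2 difference of -1.15 ± 0.12 (adjusted p = 1.7e-07 by the same test) was nearly that of CCNE1. With Act D the differences were -1.05 ± 0.11 for CCNE1 and -0.91 ± 0.13 for CCNE2, with adjusted p of 2.1e-07 and 4.0e-06 from edgeR. The ratio of CCNE1 to CCNE2 per length lay between 1.36 and 2.13 over the 12 libraries. CCNE2 shares 1629 of 4397 exon bases with INTS8 on the opposite strand, and INTS8 was at 66.8 to 74.0 CPM in vehicle-treated parental and 57.5 to 64.8 CPM in vehicle-treated uL3Δ libraries. Since use of strand in counting is not given in the sources used here, reads of such shared bases cannot be told apart by strand. RSEM's own posterior SD of a member's count was at most 1.97 counts in the 11 libraries counted per gene.

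The kinases differed from each other. CDK4 (ENSG00000135446, chr12:57747727-57756013) was at 122, 129 and 119 CPM in the vehicle-treated parental line and at 183, 226 and 202 CPM in uL3Δ, without overlap. It was 1.65-fold higher (log2 0.72 ± 0.09 SE, edgeR quasi-likelihood test, adjusted p = 1.8e-06), and 1.75-fold higher with Act D (log2 0.81 ± 0.09, adjusted p = 5.6e-07 by the same test). CDK4 shares 1369 of 3094 exon bases with TSPAN31 on the opposite strand. With vehicle TSPAN31 was at 3.92 to 4.93 CPM in the parental line and at 15.9 to 18.4 CPM in uL3Δ. With Act D it was at 4.46 to 6.27 CPM and at 17.1 to 19.7 CPM, and its part in the difference of CDK4 was not tested. CDK6 (ENSG00000105810, chr7:92604921-92836573), the other partner of the D-type cyclins, was at 453, 370 and 392 CPM in the parental line and at 426, 377 and 409 CPM in uL3Δ. These ranges overlapped almost fully (log2 difference -0.00 ± 0.09, adjusted p = 0.96 from edgeR), and with Act D the difference was 0.07 ± 0.09 (adjusted p = 0.52). Scaled by library size alone, which moved the median of all genes by -0.24, CDK6 with vehicle came to -0.25 and passed the test.

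Of the CIP/KIP inhibitors, CDKN1C (p57, ENSG00000129757, chr11:2883213-2885775), an imprinted gene, showed the largest difference of the members. It was at 2.79, 2.55 and 3.50 CPM in the vehicle-treated parental line and at 15.8, 15.7 and 15.1 CPM in uL3Δ, where its spread was small. It was 5.24-fold higher (log2 2.39 ± 0.18 SE, edgeR quasi-likelihood test, adjusted p = 1.6e-09). With Act D it was at 3.99, 6.69 and 4.26 CPM in the parental line and at 18.1, 16.1 and 16.9 CPM in uL3Δ, again far apart, a 3.42-fold difference (log2 1.77 ± 0.17, adjusted p = 5.5e-08 by the same test). CDKN1B (p27, ENSG00000111276, chr12:12685498-12722369), its close relative, was at 24.4, 24.0 and 23.0 CPM in the parental line and at 20.2, 24.8 and 23.1 CPM in uL3Δ. These values overlapped (log2 difference -0.07 ± 0.11, adjusted p = 0.60 from edgeR), and the same held with Act D (0.04 ± 0.11, adjusted p = 0.76). By library size alone the difference with vehicle was -0.31, near the shift of all genes, and passed the test. The ratio of CDKN1B to CDKN1C transcripts per length was accordingly between 4.08 and 5.31 in the vehicle-treated parental line and between 0.74 and 0.97 in uL3Δ.

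CDKN2A (ENSG00000147889, chr9:21967752-21995301), the locus of both the INK4 inhibitor p16INK4a and the MDM2-binding protein ARF, was at 14.0, 13.0 and 15.3 CPM in the vehicle-treated parental line and at 41.4, 30.2 and 37.0 CPM in uL3Δ. The lowest uL3Δ library stood above every parental one, and the gene was 2.56-fold higher (log2 1.35 ± 0.17 SE, edgeR quasi-likelihood test, adjusted p = 9.6e-07). With Act D the difference was 0.87 ± 0.17 (adjusted p = 0.00014 by the same test). The products share exons and differ in the first one, so the level of the gene does not tell p16INK4a from ARF. Only replicate 2 of the vehicle-treated parental line was deposited per transcript. There RSEM assigned 82.1 counts to transcripts that start at exon 1 beta (ARF) and 16.3 counts to those that start at exon 1 alpha (p16INK4a). Another 90.6 counts went to CDKN2A-212, which starts elsewhere, with a posterior SD of 9.25 counts. The posterior SD was 12.97 counts for the main beta transcript (CDKN2A-214, 75.5 counts) and 6.81 counts for the main alpha transcript (CDKN2A-201, 13.2 counts). Of the exon bases of CDKN2A, 593 of 3885 lie in exons of CDKN2B-AS1 on the opposite strand, which was at 1.33 to 2.69 CPM in all libraries.

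Act D changed fewer of the members. In HCT 116 p53-/- cells 4 of 9 passed the test, CCNE1 and CDKN1C higher and CCND1 and CDK6 lower, where 18.7% of all genes did (7.59% higher and 11.1% lower). In uL3Δ 3 of 9 passed, CCNE1 higher and CCND1 and CDK6 lower, where 11.9% of all genes did (3.51% higher and 8.4% lower). Groups that did not overlap were found for 38.2% of all genes in the parental line and 27.6% in uL3Δ. The median log2 change of the members was 0.10 and 0.00 in the respective lines, and that of all genes 0.02 and 0.03. The responses of the lines were measured in different libraries. The plot of log2 differences gives all 9 genes in the 4 comparisons.

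**Figure D2:**
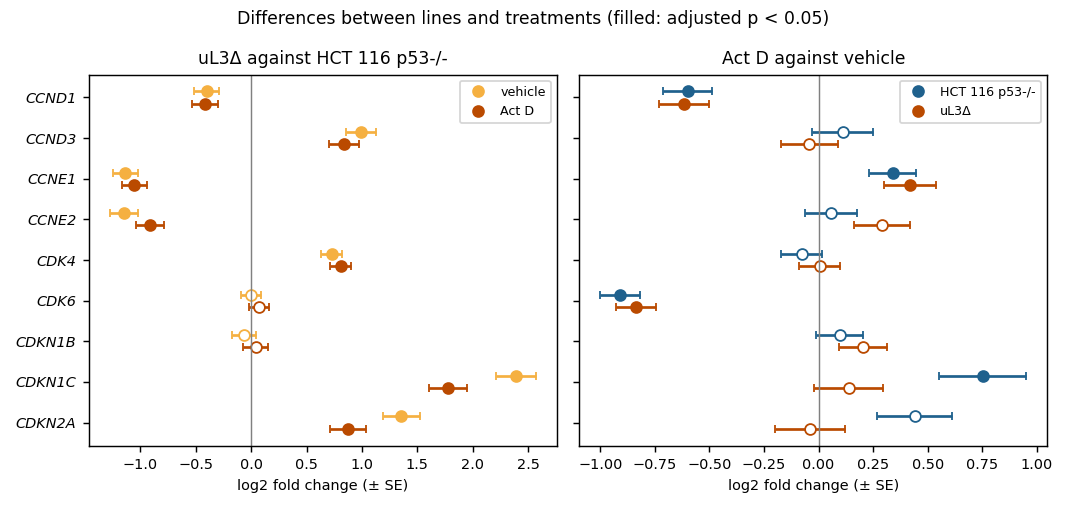
Log2 fold change of each tested gene with its SE, uL3Δ against HCT 116 p53-/- on the left and Act D against vehicle on the right, with filled symbols for adjusted p under 0.05 by edgeR's quasi-likelihood test. The differences between the lines reach 2.39 (CDKN1C with vehicle), while those with Act D lie between -0.91 (CDK6) and 0.75 (CDKN1C).

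CDK6 had the strongest response to Act D of the members. In the parental line it went from 453, 370 and 392 CPM to 210, 208 and 230 CPM, and in uL3Δ from 426, 377 and 409 CPM to 219, 245 and 215 CPM. No treated library came near an untreated one. The log2 changes were -0.91 ± 0.09 and -0.84 ± 0.09 (SE, edgeR quasi-likelihood test, adjusted p = 2.3e-06 and 1.5e-05), so that its level fell by 46.7% in the parental line and fell by 43.99% in uL3Δ. CDK4, in contrast, was at 128, 117 and 107 CPM with Act D in the parental line and at 213, 187 and 214 CPM in uL3Δ, within or close to the range with vehicle (-0.08 ± 0.09 and 0.00 ± 0.09, neither past the threshold). CDK6 therefore made up less of the CDK4 and CDK6 transcripts, per length between 28.05% and 33.5% with vehicle and between 19.3% and 23.5% with Act D in the parental line, and between 20.5% and 26.3% and between 11.9% and 16.6% in uL3Δ. These shares are given without a test, as they were computed after the values were seen.

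CCND1 fell in both lines, from between 586 and 653 CPM to between 388 and 434 CPM in the parental line and from between 401 and 572 CPM to between 273 and 319 CPM in uL3Δ. The changes were -0.60 ± 0.11 and -0.62 ± 0.11 on the log2 scale (edgeR quasi-likelihood test, adjusted p = 0.0012 and 0.0016), and without replicate 1 of vehicle-treated uL3Δ the latter was -0.44. CCND1 thus differed with both line and treatment, and its levels in Act D-treated parental cells (388 to 434 CPM) and in vehicle-treated uL3Δ cells (401 to 572 CPM) overlapped. CCND3 did not pass the test with Act D in either line (0.11 ± 0.14 and -0.04 ± 0.13). The share of CCND1 among D-type cyclin transcripts with Act D was between 85.2% and 90.1% in the parental line and between 75.8% and 80.4% in uL3Δ, as the plot of balances shows.

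**Figure D3:**
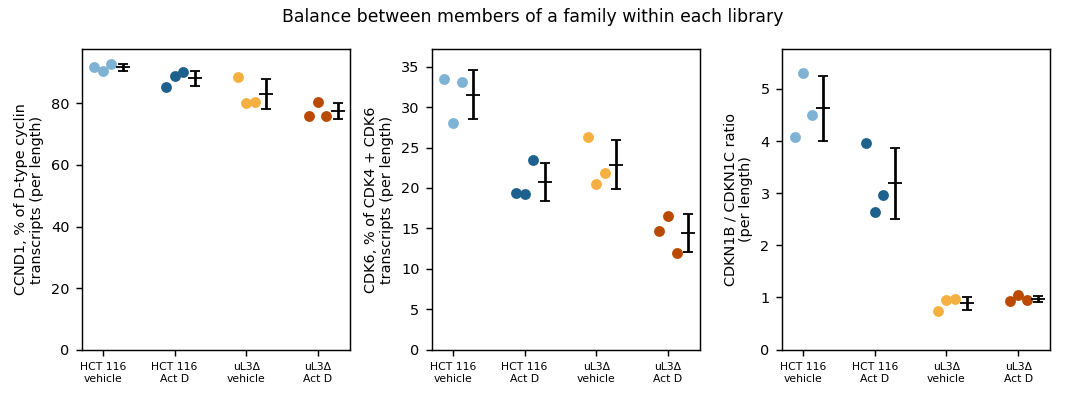
Balance between related transcripts in each library from TPM, as the share of CCND1 among CCND1, CCND2 and CCND3 (left), the share of CDK6 in CDK4 plus CDK6 (middle) and the ratio of CDKN1B to CDKN1C (right), with the mean ± SD of 3 libraries. The share of CDK6 is lower with Act D in each line, and the ratio of CDKN1B to CDKN1C is below 1.05 in all uL3Δ libraries and above 2.64 in all parental ones.

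CCNE1 rose modestly with Act D, from between 34.4 and 40.3 CPM to 43.8, 50.4 and 44.8 CPM in the parental line and from between 14.5 and 18.3 CPM to 24.6, 20.3 and 21.7 CPM in uL3Δ. The changes were 0.34 ± 0.11 and 0.42 ± 0.12 (log2, edgeR quasi-likelihood test, adjusted p = 0.036 and 0.028). The libraries did not overlap, but these calls were the least firm of the members, with adjusted p up to 0.21 and 0.15 over the alternatives. In the parental line the call was lost without vehicle replicate 2 or 3 (adjusted p = 0.12 and 0.13) and without Act D replicate 1, 2 or 3 (0.062, 0.17 and 0.053), and in uL3Δ without vehicle replicate 1 or 3 (0.11 and 0.057) and without Act D replicate 1 or 3 (0.15 and 0.070), all from edgeR's test. CCNE2 was at 42.4, 41.3 and 42.5 CPM with Act D in the parental line, inside the range with vehicle, and at 19.4, 25.6 and 22.4 CPM in uL3Δ. It passed no test (0.06 ± 0.12 and 0.29 ± 0.13, adjusted p = 0.80 and 0.17 from edgeR).

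Among the inhibitors, CDKN1C in the parental line went from between 2.55 and 3.50 CPM to 3.99, 6.69 and 4.26 CPM (log2 0.75 ± 0.20, edgeR quasi-likelihood test, adjusted p = 0.013). Replicate 2 of the Act D group stood above the other two, and without it the change was 0.48 with an adjusted p of 0.11, while without replicate 2 of the vehicle group it was 0.66 with an adjusted p of 0.058. In uL3Δ it was at 18.1, 16.1 and 16.9 CPM with Act D, just above the range with vehicle of 15.1 to 15.8 CPM, and passed no test (0.14 ± 0.16, adjusted p = 0.63).

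CDKN2A in the parental line was at 17.5, 24.5 and 15.3 CPM with Act D against 13.0 to 15.3 CPM with vehicle. Replicate 2 was again the highest, the groups did not overlap but met at 15.3 CPM, and the change missed the threshold (0.44 ± 0.17, edgeR quasi-likelihood test, adjusted p = 0.083), though DESeq2 called it (adjusted p = 0.047), as did the same test without Act D replicate 3 (0.59, adjusted p = 0.034). In uL3Δ CDKN2A was at 38.8, 28.2 and 37.9 CPM, as with vehicle (-0.04 ± 0.16). CDKN1B was at 26.6, 27.5 and 22.3 CPM with Act D in the parental line and at 27.0, 26.8 and 24.7 CPM in uL3Δ, and neither change passed the test (0.10 ± 0.11 and 0.20 ± 0.11).

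Whether the lines responded differently to Act D was tested with an interaction term. By edgeR's quasi-likelihood test 0 of the 9 members passed, where 6.53% of all genes did (3.3% higher and 3.23% lower), and DESeq2 and the likelihood-ratio test also called 0. At an unadjusted p under 0.05 there was 1, CDKN1C (log2 difference of the responses -0.61 ± 0.25, adjusted p = 0.16), followed by CDKN2A (-0.48 ± 0.23, adjusted p = 0.25). For CCND1 the responses differed by -0.02 ± 0.16 and for CDK6 by 0.07 ± 0.13, and differences of the size of these standard errors were not detectable with 3 libraries a group.

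Of 29 other genes of the G1 machinery (CDK2, A-type cyclins, other inhibitors, the CDK-activating kinase, CDC25 phosphatases, pocket proteins, E2F factors and the ubiquitin ligases that remove cyclins and inhibitors), 28 were tested and CCNA1 was not. With vehicle 13 were higher and 8 lower in uL3Δ, beside 35.1% and 36.2% of all genes, and with Act D 14 were higher and 10 lower, beside 35.1% and 35.3%. As for the members, most genes of any kind were called here. The median log2 differences were 0.24 and 0.26 over the list, against -0.02 over all genes in both comparisons. CKS1B, a cofactor that presents CDKN1B to its ubiquitin ligase, had the largest increase among members of the list with at least 5 CPM, at 52.8 to 57.8 CPM in the vehicle-treated parental line and 171 to 199 CPM in uL3Δ (log2 1.74 ± 0.09 SE, edgeR, adjusted p = 4.7e-12). CDKN2D, an INK4 inhibitor, was at 3.62 to 4.02 CPM in the parental line and higher, at 8.27 to 11.9 CPM, in uL3Δ (log2 1.46). FBXO31, an F-box protein that targets cyclin D1, was lower in uL3Δ, at 14.8 to 20.0 CPM against 65.9 to 68.7 CPM (log2 -2.02), as was E2F2 (11.3 to 13.7 CPM against 39.2 to 41.9 CPM, log2 -1.72). With Act D the largest differences by the same rule were those of CKS1B (1.66), of MNAT1, a subunit of the CDK-activating kinase (1.51), of FBXO31 (-2.01) and of CDKN1A (-2.68).

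With Act D against vehicle, 4 of the 28 rose and 7 fell in the parental line, beside 7.59% and 11.1% of all genes, and 1 rose and 7 fell in uL3Δ, beside 3.51% and 8.4%. All 4 that rose in the parental line are CDK inhibitors (CDKN1A, CDKN2B, CDKN2C and CDKN2D). CDKN2B, CDKN2C and CDKN2D were low there, at 3.16, 4.38 and 3.88 CPM on average with vehicle and 8.21, 7.19 and 6.55 CPM with Act D. The adjusted p of CDKN2C from edgeR was 0.018, and up to 0.11 over the alternatives. Of the inhibitors among the members, CDKN1C rose too, while CDKN1B and CDKN2A were not called there (edgeR, adjusted p = 0.59 and 0.083). CDKN1A, the gene of p21, went from 154, 173 and 159 CPM to 577, 563 and 523 CPM in the parental line (log2 1.77 ± 0.08 SE, edgeR, adjusted p = 4.0e-10). In uL3Δ it went from 72.3, 76.6 and 73.9 CPM to 86.8, 82.2 and 90.2 CPM, a small change that missed the threshold (0.22 ± 0.08, adjusted p = 0.088, and between 0.027 and 0.50 over the alternatives, so that at least 1 of them called it). CDKN2B, an INK4 inhibitor that neighbours CDKN2A, rose in both lines, from between 2.60 and 3.56 CPM to between 6.83 and 9.53 CPM and from between 5.38 and 6.08 CPM to between 13.7 and 14.6 CPM (log2 1.38 and 1.30). RBL1, the pocket protein p107, fell in both (-0.79 and -0.82), E2F2 fell in the parental line (-0.88) and CUL1, the scaffold of SCF ubiquitin ligases, fell in uL3Δ (-0.74). The interaction passed the test for 3 of the 28, CDKN1A, CUL1 and FBXW7, beside 6.53% of all genes, as the plot of responses shows.

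**Figure D4:**
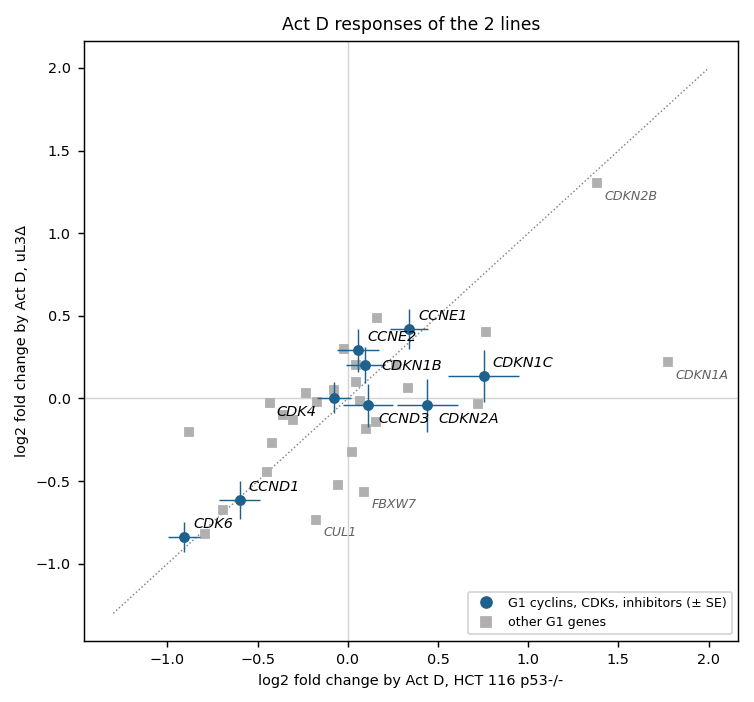
Log2 fold change with Act D in HCT 116 p53-/- cells (horizontal) and in uL3Δ (vertical) for the 9 tested G1 cyclins, CDKs and inhibitors (circles with SE) and 28 other G1 genes (squares), with a dotted line of equal response. CDK6 and CCND1 lie near the line at the lower left, CDKN2B near it at the upper right, and CDKN1A far below it (1.77 against 0.22).

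The summed level of 14 proliferation genes, among them MKI67, PCNA and the MCM helicase genes, was 3135 to 3198 CPM with vehicle and 3376 to 3407 CPM with Act D in the parental line, and 2922 to 3047 CPM and 2909 to 3025 CPM in uL3Δ. With Act D 2 rose and 1 fell in the parental line (MKI67 and PCNA, and MCM6, by edgeR's test), beside 7.59% and 11.1% of all genes. The median log2 change of the list was 0.03 in the parental line and -0.01 in uL3Δ. With vehicle 5 were higher and 9 lower in uL3Δ, beside 35.1% and 36.2% of all genes, so the sums hide shifts in both directions. MKI67, for example, averaged 530 CPM in the vehicle-treated parental line and 175 CPM in uL3Δ, and CDK1 averaged 140 and 298 CPM. The part of the 14 genes in the differences of the cyclins was not tested.

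The genes most like CCND1 over the 12 libraries, by the root mean square difference of log2 CPM centred on each gene's mean, were BANP (0.09), SH3BP4 (0.11) and NF2 (0.12), of 11729 genes compared. They were chosen for this likeness, so that their order of groups follows from the choice. Like CCND1, they were highest in the vehicle-treated parental line and lowest in Act D-treated uL3Δ. BANP averaged 20.4 and 14.3 CPM in the parental line with vehicle and with Act D, and 15.9 and 10.8 CPM in uL3Δ. Of the other members CDK6 came closest, at rank 814 (0.30), and CDKN1C was farthest (1.38).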

How the data were processed

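RNA-seq of 12 libraries in 4 groups, taken from the sample labels, was used. Before deposit the authors had trimmed the reads, filtered out those of ribosomal RNA and other contaminants, and estimated expression with RSEM 1.2.25 on the Ensembl annotation of hg38; the Ensembl release is not given in the sources used here. The deposited expected counts are not normalized, and RSEM divides a read that fits several genes between them, so that paralogs and overlapping genes have less certain values. The deposited TPM values are scaled by length and to a common total, of which RN7SL1 alone took 12.4% to 19.8%, so TPM served only within a library. RSEM's posterior SD of each count is a deposited score, and the deposited percent of a gene's transcripts per isoform was available for 1 library, replicate 2 of vehicle-treated HCT 116 p53-/- cells, which lists 226788 transcripts that were summed per gene.

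Counts were rounded and genes filtered with edgeR's filterByExpr, which left 15692 of 33990 genes with any count. A single model with 1 term per group and TMM scaling was fitted to the 12 libraries (edgeR 4.0.16, R 4.3.3). Contrasts were tested by quasi-likelihood, with p-values adjusted by Benjamini and Hochberg's method over every gene tested and a threshold of 0.05. SE is the log2 fold change divided by the root of the F statistic. Gene names and coordinates came from GENCODE release 44 (60261 of 60617 identifiers matched). Totals of 10087925 to 21138886 counts make 3 counts equal to 0.142 to 0.297 CPM. With 3 libraries a group, p-values measure the spread between these libraries. Same-numbered libraries of different groups did not deviate together (correlations between -0.06 and 0.09 over genes), so the numbers were not taken as pairs.

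Named genes were the 10 members, RPL3 as a check of the labels (1 further check is not reported here), in each comparison up to 2 other G1 genes with the largest called change in each direction and a mean of at least 5 CPM in a group compared, and the 3 genes nearest to CCND1. Other genes are named only where a count or an overlap with a member is spelled out. The members and the gene lists were chosen with earlier results of these data known. The tests were tried on simulated counts before use. Alternatives were DESeq2 1.42.0, the likelihood-ratio test, other scalings, filters and thresholds, a block for replicate number, fits of only the groups compared, and each library left out.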

Additional observations from a re-analysis of the deposited data

Results flagged for a closer look

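The Act D responses of the lines differed past the threshold of the interaction test for 3 of the 28 other G1 genes tested. Of all genes 6.53% did. CDKN1A, the gene of p21, rose by 1.77 on the log2 scale in HCT 116 p53-/- cells and by 0.22 in uL3Δ, a difference of -1.56 ± 0.11 (SE, edgeR quasi-likelihood test, adjusted p = 1.1e-06). All 3 treated libraries stood above all 3 untreated ones in each line, and groups without overlap held for 38.2% of all genes in the parental line and 27.6% in uL3Δ. The change of CDKN1A in uL3Δ missed the threshold (edgeR quasi-likelihood test, adjusted p = 0.088). FBXW7, an F-box protein that targets cyclin E, was at 32.2 to 36.4 CPM with vehicle and 35.1 to 37.2 CPM with Act D in the parental line, and at 33.5 to 39.5 CPM and 23.3 to 26.6 CPM in uL3Δ, a difference between the responses of -0.65 ± 0.14 (edgeR quasi-likelihood test, adjusted p = 0.0085). CUL1, the scaffold of SCF ubiquitin ligases, was at 114 to 119 CPM with vehicle and 99.4 to 107 CPM with Act D in the parental line, and at 97.6 to 107 CPM and 57.2 to 63.8 CPM in uL3Δ, a difference of -0.56 ± 0.11 (edgeR quasi-likelihood test, adjusted p = 0.0051).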

How the results depend on the processing

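The 7 calls of members between the lines, with vehicle and with Act D, and the Act D calls of CCND1 and CDK6 in both lines kept their direction and stayed past the threshold in all 22 alternatives tried. The Act D calls of CCNE1 were lost with library size alone, without a filter and without several single libraries, and that of CDKN1C in HCT 116 p53-/- cells without replicate 2 of its vehicle or Act D group; the cause was not tested. Numbers do not pair the libraries, and with the replicate block 7, 7, 3, 3 and 0 members were called in the 5 comparisons (CCNE1 in the parental line missed, adjusted p = 0.061), 21, 24, 10, 7 and 3 other G1 genes, and 10964, 10818, 2469, 1502 and 722 genes in all.

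At an adjusted p under 0.01 the count of members changed by Act D in the parental line was 2, and the counts of all genes were 1564 in the parental line, 932 in uL3Δ and 359 for the interaction. For the interaction, 5 other G1 genes were called with DESeq2 and 5 without a filter. With 1 library left out at a time, Act D in the parental line called 2 to 4 members, 7 to 12 other G1 genes (7 without replicate 1 of the Act D group) and 1833 to 3389 genes, Act D in uL3Δ 1272 to 1869 genes, and the interaction 614 to 979 genes.

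Scaling by library size alone moved the median of all genes by -0.24 between the lines and by -0.10 with Act D. Changes of sign met only values that were not called in the analysis reported. With library size alone RPL3 was -0.11 with vehicle and -0.13 with Act D between the lines, the line differences of CDK6 and CDKN1B with Act D were -0.18 and -0.20, the Act D changes of CCNE2 and CDKN1B in the parental line were -0.045 and -0.0012, and that of CDK4 in uL3Δ was -0.097. CDK4 there was -0.040 without a filter and -0.016 with only 2 groups fitted. With upper-quartile factors CCND3 and CDKN2A in uL3Δ came to 0.021 and 0.022 and the interaction of CCND1 to 0.013. CDK6 between the lines with vehicle was 0.00033 with DESeq2 and 0.00044 with RLE factors. Leaving out single libraries gave, between the lines with vehicle, -0.064 to 0.084 for CDK6 and -0.14 to 0.014 for CDKN1B, and with Act D -0.023 to 0.090 for CDK6 and -0.081 to 0.092 for CDKN1B. For Act D it gave -0.045 to 0.25 for CCND3 in the parental line, and in uL3Δ -0.15 to 0.040 for CCND3, -0.071 to 0.084 for CDK4 and -0.16 to 0.067 for CDKN2A. For the interaction it gave -0.11 to 0.16 for CCND1, -0.31 to 0.00020 for CCND3, -0.0080 to 0.16 for CCNE1, -0.013 to 0.16 for CDK4, -0.019 to 0.13 for CDK6 and -0.013 to 0.17 for CDKN1B. CDKN1C, with 2.55 CPM in its lowest library, and CCND2 are the members whose values depth limits most.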
